A study of Mus musculus with 9 samples.

Results

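The 9 genes described here encode components of complement, a set of plasma and tissue proteins that tag microbes and injured cells and that activate one another in a proteolytic cascade. The classical pathway starts when C1q, built from the chains of C1qa, C1qb and C1qc, binds its target and activates the serine proteases C1r and C1s, which then cleave C4 and C2. The alternative pathway amplifies the cleavage of C3, the component on which the pathways meet, through factor B and its activating protease factor D. Liver makes most circulating complement, while macrophages are a known source of C1q, fibroblasts and keratinocytes of early components, and adipocytes of factor D.

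The members were the rows of the epidermal gene count table whose symbol was C3, C4b, Cfb, Cfd, C1qa, C1qb, C1qc, C1ra or C1s1, 9 of 52550 genes, and all 9 were found. RNA sequencing covered the epidermis of mouse ears, peeled as sheets, with 3 libraries in each of 3 groups. All mice were wild-type animals 8 weeks old of the strain C57BL/6 per the labels, given as C57BL/6J in the methods. The VAS + H2O control group had Vaseline on the ears and water by gavage. The IMQ + H2O model group had imiquimod cream, a Toll-like receptor 7 agonist that elicits psoriasis-like dermatitis, and water. The IMQ + XYF group had imiquimod and Xiao-Yin-Fang (XYF), a decoction of medicinal herbs given at 23.3 mg per g in gavage volumes of 200 µl. Gavage ran for 10 days in every group, and the ears were treated topically for 5 days. The labels give 1 gavage per day, whereas legends of the study give a higher frequency, so the daily dose is uncertain. The methods name 2 mice as the source of the sheets without saying whether that is per library, so p-values measure the spread between these libraries, which may be partly technical. Total counts were 44681447, 31034401 and 34689174 for VAS + H2O, 30298275, 39617029 and 43815369 for IMQ + H2O, and 64771160, 33208358 and 34913386 for IMQ + XYF, replicates 1 to 3 in that order, and every series of 3 values below keeps this order.

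In brief, C1s1 was 2.79-fold higher in the model group than in the control, a call that held whichever library was left out. It was 2.25-fold higher in IMQ + XYF than in the control. That call was lost without any of 4 libraries, and also with a replicate block. C1qb was also called higher in the model group and C4b lower. The C1qb call, however, was lost without any of 5 of the 6 libraries or with a replicate block. The C4b call was lost without any of 3 libraries or with all 9 libraries in 1 fit. No member passed edgeR's test between IMQ + XYF and IMQ + H2O, while DESeq2 called C4b higher. All 3 IMQ + XYF libraries were above all 3 IMQ + H2O libraries for C4b and C1ra, while 10.7% of all genes had groups that did not overlap in this comparison. C1qc, C1ra, C3, Cfb and Cfd were not called by edgeR or DESeq2 in any comparison of all libraries, and C1qa was called higher in the model group by DESeq2 but missed the threshold in edgeR.

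Some libraries stood apart from the others of their group. Replicate 1 of IMQ + XYF, the deepest library, had the highest normalized level of all 9 libraries for 6 of the 9 members (C3, C4b, Cfb, Cfd, C1qc and C1ra), whereas it was the highest library for 5.24% of the 18492 genes kept. Fold changes and medians that rest on it are therefore given with and without it. The sheets were rich in keratinocyte transcripts, as labelled. The summed level of 10 keratinocyte markers lay between 44060 and 69140 CPM (counts scaled to the normalized library size), led by Krt10. They were not free of other tissue, since Acan, a cartilage proteoglycan, was found at 27.6 to 277.6 CPM. VAS + H2O replicate 2 held a summed level of 745 CPM over 10 dermal fibroblast markers, against 103 and 137 CPM in the other VAS + H2O libraries. The same sum was 60.3, 58.7 and 60.8 CPM in IMQ + H2O and 240, 174 and 87.7 CPM in IMQ + XYF, with Dcn as its most abundant gene. The sum of 10 cartilage markers was 197, 461 and 216 CPM in VAS + H2O, 86.1, 59.0 and 39.9 CPM in IMQ + H2O, and 205, 135.5 and 139.5 CPM in IMQ + XYF, and in this list 8 of 8 tested genes were called lower in the model group than in the control. In bulk tissue, fewer cells of a type and less RNA per cell cannot be told apart.

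**Figure D1:**
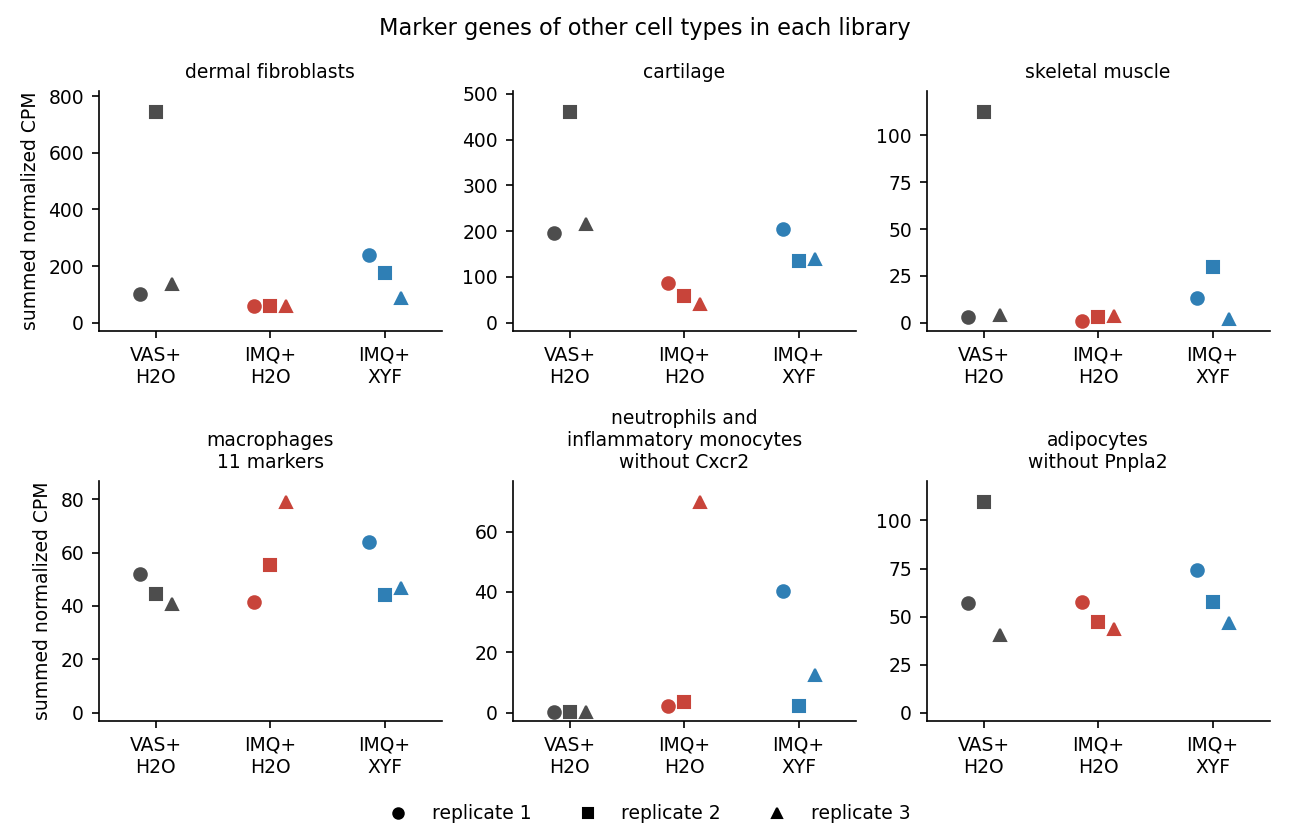
Summed normalized CPM of marker genes for 6 other cell types or tissues, with 1 point per library, 3 libraries per group, and linear vertical axes that differ between panels. The macrophage panel sums 11 markers, and the neutrophil and adipocyte panels leave out their most abundant gene, named above the panel. VAS + H2O replicate 2 is highest for fibroblast, cartilage and muscle markers, and IMQ + H2O replicate 3 is highest for the lower left and lower middle panels.

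Levels between genes were compared as normalized CPM per kb of exon. Over the 9 libraries C4b had the highest level per kb (9.30 ± 6.44, SD, n = 9), followed by C3 (3.99 ± 2.33) and C1s1 (3.32 ± 1.53). C1ra and C1qa came next at 2.14 ± 0.86 and 1.85 ± 0.90, then Cfb at 1.26 ± 0.59. C1qb, Cfd and C1qc were the lowest, at 0.834 ± 0.649, 0.665 ± 0.979 and 0.489 ± 0.193. The exons of C1qc cover 1931 bases but its longest transcript has 1203, so its order against Cfd depends on the length used. Each neighbouring pair in this order differed by less than the larger of its SDs. The order differed between groups. In IMQ + H2O, C1s1 was highest at 4.62 ± 0.56 per kb (SD, n = 3), followed by C4b at 4.15 ± 0.79, a difference smaller than the larger SD, while C3 was at 2.84 ± 0.55. In VAS + H2O, C1ra (1.76 ± 0.82) and C1s1 (1.64 ± 0.50) differed by less than the larger SD. C1qc, the third chain of a protein in which the chains are equal in number, was thus measured below C1qa.

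**Figure D2:**
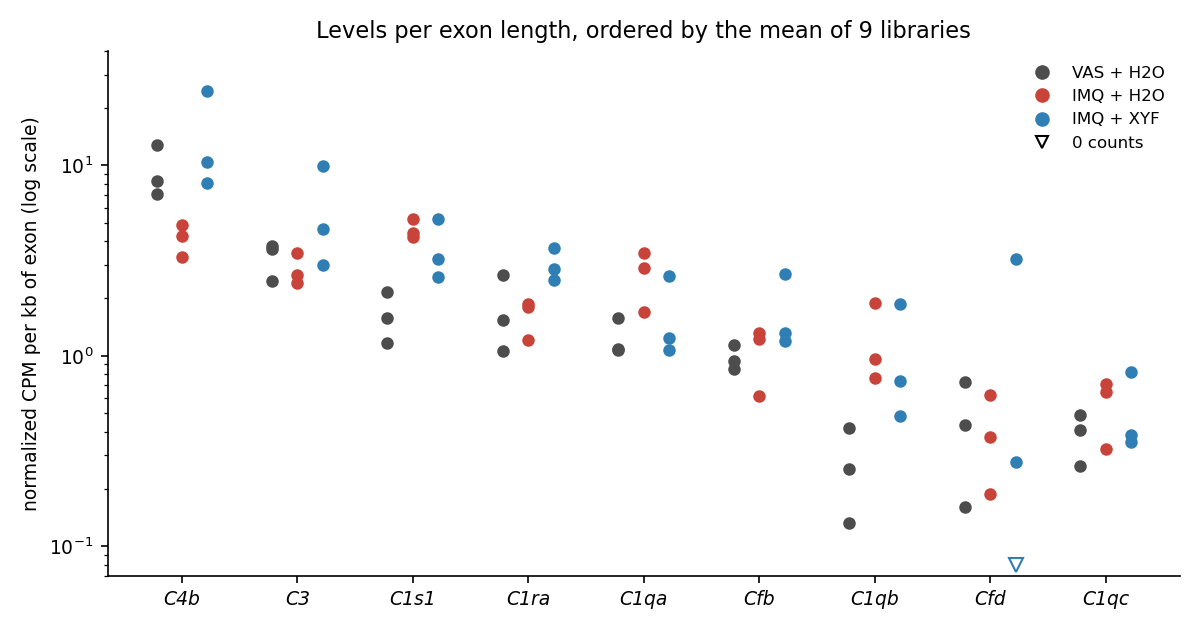
Normalized CPM per kb of exon (log axis) of the 9 complement genes, with 1 point per library coloured by group and the genes ordered by their mean over 9 libraries. C4b reaches 24.5 in IMQ + XYF replicate 1, and the open triangle marks the IMQ + XYF library with 0 counts of Cfd.

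The first question was how the model group differed from the control group. Of the 9 members, all were tested and 3 were called (adjusted p no higher than 0.05 together with a difference of 2-fold or more in either direction, edgeR's quasi-likelihood test), against 7.68% of the 18009 genes tested. C1s1 and C1qb were called higher, where the share of all genes was 3.64%, and C4b was called lower, where it was 4.04%. Groups did not overlap for 4 members (C1qa, C1qb, C1s1 and C4b), against 45.0% of all genes tested. The median log2 fold change of the members was 0.09, and that of all genes was -0.03. The members' median lay between -0.033 and 0.45 with libraries left out in turn.

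The second question was whether XYF changed the model epidermis. The test called 0 of 9 members between IMQ + XYF and IMQ + H2O, and 5 of 17793 genes, all higher, which is 0.0281%. At an unadjusted p below 0.05, edgeR listed 966 genes, 3 of them members (C4b, C1ra and C3), and DESeq2 called 1 member, C4b, among 129 genes. Groups did not overlap for C4b and C1ra, 2 of the 9 members, against 10.7% of all genes. The median log2 fold change was 0.74 for the members and 0.00058 for all genes. Without IMQ + XYF replicate 1 the median of the members turned to -0.24, with 4 positive and 5 negative signs, and that of all genes was -0.0094. It was 0.38 when Cfb was summed with Gm20547, a gene that overlaps it.

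Between IMQ + XYF and VAS + H2O, edgeR called 1 member (C1s1) and DESeq2 called C1qb as well. The edgeR count stands against 7.64% of 17954 genes (4.58% higher and 3.05% lower). The groups did not overlap for C1qb, C1s1 and Cfb, against 47.5% of all genes. All 9 fold changes had a positive sign, where 46.9% of all genes did, with a median log2 fold change of 0.83 against -0.04 for all genes. Without IMQ + XYF replicate 1 the signs of C4b, Cfd, C1qa and C1qc were negative, at -0.0055, -1.57, -0.093 and -0.044, and the median of the members was 0.24. The 3 comparisons share groups in pairs, so none of them is independent of the others.

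**Figure D3:**
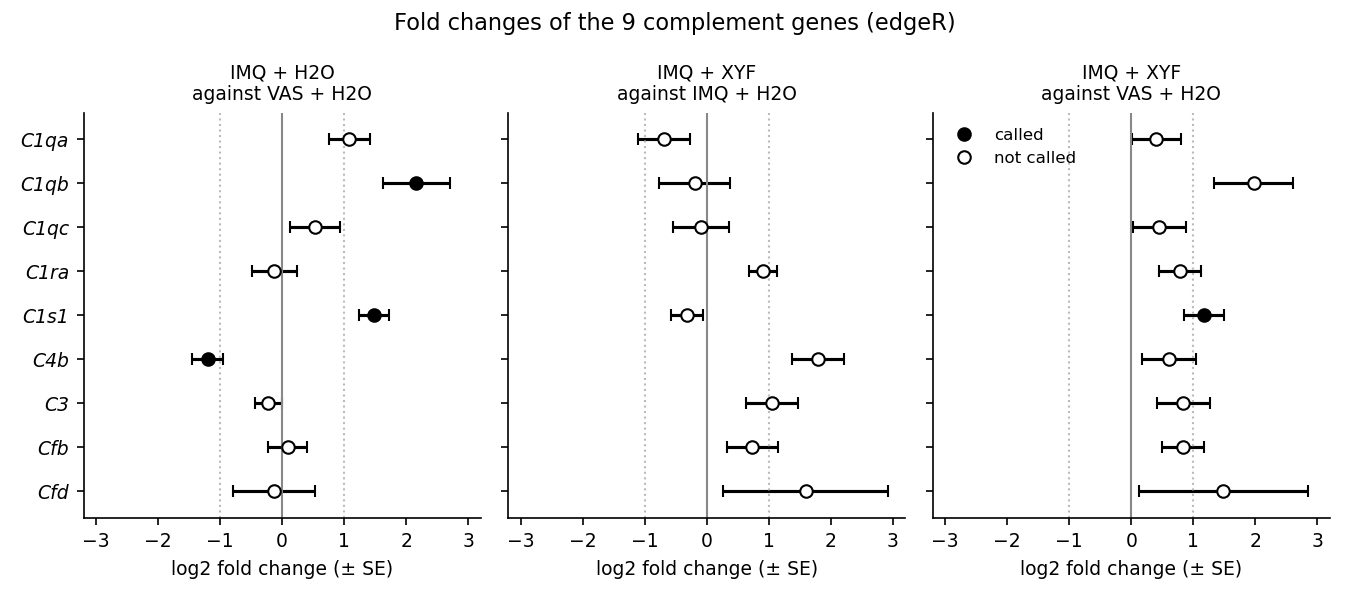
Log2 fold changes (horizontal axis, error bars are the SE of edgeR's fit on 6 libraries) of the 9 complement genes in the 3 comparisons, with dotted lines at -1 and 1. Filled points were called. C1s1, C1qb and C4b are filled in the left panel, none in the middle panel, and C1s1 in the right panel.

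The C1q chains, which recognize antibody-bound and dying cells, are encoded side by side on chromosome 4 (GRCm38), C1qa at chr4:136895917-136898803, C1qc at chr4:136889804-136893065 and C1qb at chr4:136880129-136886187, all on the minus strand. C1qa measured 1.65, 1.12 and 1.12 CPM in VAS + H2O, 1.76, 2.99 and 3.59 CPM in IMQ + H2O, and 2.72, 1.30 and 1.11 CPM in IMQ + XYF. Every IMQ + H2O library thus lay above every VAS + H2O library, while IMQ + XYF overlapped both groups. The model group was 2.12-fold higher than the control (log2 1.09 ± 0.33, SE, adjusted p = 0.0564, edgeR), which missed the threshold, whereas DESeq2 called it (adjusted p = 0.0289).

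C1qb was the lowest of the 3 chains by counts in VAS + H2O, with 5 to 15 counts per library. Its level was 0.275, 0.455 and 0.143 CPM in VAS + H2O, 0.829, 1.04 and 2.06 CPM in IMQ + H2O, and 2.04, 0.524 and 0.798 CPM in IMQ + XYF. Both groups given imiquimod lay wholly above the control. C1qb was 4.47-fold higher in IMQ + H2O (log2 2.16 ± 0.54, adjusted p = 0.0334, edgeR) and its difference between IMQ + XYF and VAS + H2O was 1.97 ± 0.64 on the log2 scale (adjusted p = 0.0599, edgeR, and 0.0266, DESeq2). The call in IMQ + H2O was lost when any of 5 libraries was left out, each VAS + H2O library or IMQ + H2O replicate 2 or 3, with log2 fold changes between 1.67 and 2.60, and with a replicate block (adjusted p = 0.089, edgeR). C1qc measured 0.508, 0.789 and 0.947 CPM in VAS + H2O, 0.622, 1.25 and 1.37 CPM in IMQ + H2O, and 1.59, 0.740 and 0.684 CPM in IMQ + XYF. The groups overlapped for C1qc, and the log2 difference of the model from the control was 0.53 ± 0.40 (adjusted p = 0.376, edgeR). Between IMQ + XYF and IMQ + H2O the 3 chains differed by -0.68, -0.20 and -0.08 on the log2 scale for C1qa, C1qb and C1qc, and by -1.21, -0.99 and -0.61 without IMQ + XYF replicate 1, all with edgeR adjusted p-values of 0.999 or above.

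Macrophage markers were measured beside C1q. Of 11 markers, 7 were tested between IMQ + H2O and VAS + H2O and 0 were called by edgeR, Cd68 being closest at 0.60 on the log2 scale (adjusted p = 0.0425, edgeR), short of the 2-fold threshold. Their sum, led by Csf1r, the receptor of a macrophage growth factor, was 51.9, 44.6 and 40.8 CPM in VAS + H2O, 41.3, 55.5 and 79.1 CPM in IMQ + H2O, and 64.0, 44.2 and 46.8 CPM in IMQ + XYF. Its highest values fell in IMQ + H2O replicate 3 and IMQ + XYF replicate 1, the libraries that were also highest for C1qb. For C1qa, IMQ + H2O replicate 2 (2.99 CPM) came between these libraries. Mrc1, a macrophage mannose receptor, was at 4.40 and 2.97 CPM there, Lyz2, a lysozyme of myeloid cells, at 11.0 and 7.48 CPM, and Mpeg1, a pore-forming protein of macrophages, at 16.0 and 11.2 CPM. Other markers of the list peaked elsewhere. Csf1r was highest in VAS + H2O replicate 1 (38.9 CPM) and Adgre1 in IMQ + H2O replicate 2 (3.54 CPM). Cx3cr1 and Cd163 were highest in VAS + H2O replicate 2 (2.28 and 1.03 CPM). Mpeg1 was the 1 marker of the 11 that edgeR called higher in IMQ + XYF than in the control (log2 2.44, adjusted p = 0.00588), where 8 were tested. Among the defining markers, Fcgr1 had no count in 6 libraries and Ms4a7 had none in any VAS + H2O or IMQ + H2O library. The sum of 8 Langerhans cell markers was nearly level, between 1154 and 1485 CPM. The neutrophil and inflammatory monocyte list, led by Cxcr2, summed to 11.3, 10.9 and 12.7 CPM in VAS + H2O, 51.4, 53.8 and 150.6 CPM in IMQ + H2O, and 96.5, 63.0 and 66.9 CPM in IMQ + XYF. Cxcr2 made up most of it in every library. Without Cxcr2 the sum was at most 0.275 CPM in VAS + H2O, 2.11, 3.41 and 69.9 CPM in IMQ + H2O, and 40.4, 2.07 and 12.6 CPM in IMQ + XYF, highest in the same pair of libraries as C1qb. The part of these cell types in the C1q differences was not tested.

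C1r and C1s are the proteases that C1q activates, and their genes lie tail to tail on chromosome 6, C1ra at chr6:124512405-124523443 on the plus strand and C1s1 at chr6:124530345-124542359 on the minus strand. They behaved differently. C1s1 measured 3.66, 6.80 and 4.93 CPM in VAS + H2O, 13.8, 13.1 and 16.4 CPM in IMQ + H2O, and 10.1, 8.14 and 16.4 CPM in IMQ + XYF. All 6 libraries given imiquimod were above all 3 controls. C1s1 was 2.79-fold higher in IMQ + H2O (log2 1.48 ± 0.25, adjusted p = 0.0122, edgeR), and this call held when each library was left out in turn, with log2 fold changes from 1.28 to 1.75. In IMQ + XYF it was 2.25-fold higher than in VAS + H2O (log2 1.17 ± 0.33, adjusted p = 0.0383, edgeR). That call was lost with a replicate block, and also without VAS + H2O replicate 1 or 3 or IMQ + XYF replicate 1 or 3. With each of the 6 libraries left out in turn, the log2 fold change lay between 0.84 and 1.43. Between IMQ + XYF and IMQ + H2O the difference was -0.32 ± 0.26 (adjusted p above 0.999, edgeR), with overlap. C1s1 was the only member for which IMQ + XYF replicate 1 was below the mean of its group, at 0.824 times the mean of the other IMQ + XYF libraries.

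C1ra measured 3.17, 7.92 and 4.62 CPM in VAS + H2O, 5.56, 3.59 and 5.39 CPM in IMQ + H2O, and 11.0, 8.54 and 7.50 CPM in IMQ + XYF. IMQ + H2O lay within the range of the control, and IMQ + XYF lay above IMQ + H2O in all 3 libraries. The log2 difference was -0.13 ± 0.36 for IMQ + H2O against VAS + H2O (adjusted p = 0.831, edgeR) and 0.90 ± 0.23 for IMQ + XYF against IMQ + H2O (adjusted p = 0.512, edgeR), below a doubling under either tool. DESeq2 gave the latter an adjusted p of 0.0438. Without IMQ + XYF replicate 1 it was 0.72 ± 0.23. The highest control value fell in VAS + H2O replicate 2, the library richest in fibroblast markers, and without it the log2 difference between IMQ + XYF and VAS + H2O rose from 0.79 to 1.22 and was called (adjusted p = 0.0267, edgeR). The part of dermal tissue in these values was not tested.

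The proteases have close copies, C1rb and C1s2, on the same chromosome. Of the 50-base windows of the longest C1ra transcript, 48.0% also occurred exactly in C1rb, and 24.3% of those of C1s1 occurred in C1s2. Reads from such windows cannot be assigned to either copy. Few counts were listed for the copies, at most 10.4% of C1ra and C1rb together and 6.99% of C1s1 and C1s2 together in any library, and summing each pair before the fit kept the number of members called in all 3 comparisons. A further 15.0% of C1s1 windows match the antisense gene Gm16567.

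C4 is the classical pathway component that C1s cleaves, and its gene C4b, at chr17:34728380-34743882 in the major histocompatibility complex, went the other way from C1s1 in the model group. C4b measured 47.2, 73.2 and 40.5 CPM in VAS + H2O, 27.8, 24.2 and 18.8 CPM in IMQ + H2O, and 139.4, 59.2 and 46.2 CPM in IMQ + XYF. IMQ + H2O was below both other groups in every library, and the range of IMQ + XYF overlapped that of VAS + H2O. C4b was 2.30-fold lower in the model group than in the control (log2 -1.20 ± 0.25, adjusted p = 0.0205, edgeR). The call was lost without VAS + H2O replicate 2 (log2 -0.90), IMQ + H2O replicate 2 (-1.18, adjusted p = 0.0537, edgeR) or IMQ + H2O replicate 3 (-1.06, adjusted p = 0.0601, edgeR), and when all 9 libraries were in 1 fit (-1.18, adjusted p = 0.0578, edgeR).

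Between IMQ + XYF and IMQ + H2O, C4b differed by 1.80 ± 0.42 on the log2 scale, 3.48-fold, with an edgeR adjusted p of 0.475. DESeq2 called it with an adjusted p of 0.0494. Without IMQ + XYF replicate 1 the difference was smaller and had a smaller SE, 1.16 ± 0.19 in edgeR (adjusted p = 0.475) and 1.15 ± 0.22 in DESeq2 (adjusted p = 0.000109). Against VAS + H2O, IMQ + XYF was at 0.61 ± 0.44 (adjusted p = 0.334, edgeR), and at -0.0055 without that library. Fibroblast and cartilage sums were also lowest in the 3 IMQ + H2O libraries. The highest fibroblast sum was in VAS + H2O replicate 2 and the highest C4b level in IMQ + XYF replicate 1. The part of dermal tissue in the C4b differences was not tested. C4a, the neighbouring copy of C4b, shares 35.2% of the 50-base windows of C4b and held 3.17% to 15.1% of the counts of the pair. Its own log2 difference was -0.48 ± 0.30 in IMQ + H2O against VAS + H2O and 1.12 ± 0.48 in IMQ + XYF against IMQ + H2O, the same signs as C4b, with edgeR adjusted p-values of 0.294 and 0.933.

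C3, whose cleavage the classical and alternative pathways share, lies at chr17:57203970-57228136. It measured 18.6, 19.3 and 12.6 CPM in VAS + H2O, 13.6, 12.4 and 17.8 CPM in IMQ + H2O, and 50.9, 23.8 and 15.5 CPM in IMQ + XYF. The control and model groups covered much the same range, with a log2 difference of -0.22 ± 0.21 (adjusted p = 0.487, edgeR). The IMQ + XYF libraries were spread over a wider range that overlapped both. XYF against water under imiquimod gave 1.05 ± 0.42 (adjusted p = 0.858, edgeR, and 0.233, DESeq2), and 0.43 ± 0.24 without IMQ + XYF replicate 1. Against VAS + H2O the values were 0.84 ± 0.42 with and 0.24 ± 0.26 without this library.

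Factor B, the protease subunit of the alternative C3 convertase, is encoded by Cfb at chr17:34856374-34862518. Cfb measured 2.41, 3.22 and 2.67 CPM in VAS + H2O, 3.73, 1.74 and 3.45 CPM in IMQ + H2O, and 7.61, 3.70 and 3.39 CPM in IMQ + XYF. IMQ + XYF was above the control in every library. Its log2 difference was 0.83 ± 0.34 (adjusted p = 0.114, edgeR), and 0.38 ± 0.22 without IMQ + XYF replicate 1. The low IMQ + H2O replicate 2 value needs care, because Gm20547, a read-through gene that spans C2 and Cfb, shares 79.5% of the exon bases of Cfb. In that library Gm20547 held 91 counts and Cfb 67, whereas Gm20547 had 0 to 6 counts in every other library. With the pair summed, a step added after the values were seen, IMQ + H2O measured 3.87, 4.11 and 3.59 CPM, a narrower range that lay above all 3 controls. The log2 difference of IMQ + H2O from VAS + H2O was then 0.47 ± 0.19 (adjusted p = 0.126, edgeR) in place of 0.09 ± 0.32, and that of IMQ + XYF from IMQ + H2O was 0.38 ± 0.32 in place of 0.74 ± 0.41. Without IMQ + XYF replicate 1, and with Cfb alone, the latter was 0.25 ± 0.35.

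Factor D, the protease that cleaves factor B and is also called adipsin, is encoded by Cfd at chr10:79890853-79892655. Its counts were 7, 22 and 14 in VAS + H2O, 5, 22 and 15 in IMQ + H2O, and 188, 0 and 9 in IMQ + XYF. A single library therefore held most Cfd counts of the series, at 2.95 CPM, while the count of 0 in IMQ + XYF replicate 2 allows a level of up to 0.0925 CPM. No comparison passed the test, with a log2 difference of 1.60 ± 1.33 between IMQ + XYF and IMQ + H2O that turned to -1.47 ± 1.14 without replicate 1. Adipoq, an adipocyte hormone gene, was at 1.71 CPM in that replicate and at most 0.255 CPM in the other 8 libraries, and Fabp4 was at 13.4 CPM against at most 6.07 CPM. The whole adipocyte list, led by Pnpla2, summed to 132 CPM there, within the range of 92.5 to 179 CPM of the other libraries, and VAS + H2O replicate 2 was highest. The part of fat in the Cfd value was not tested.

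**Figure D4:**
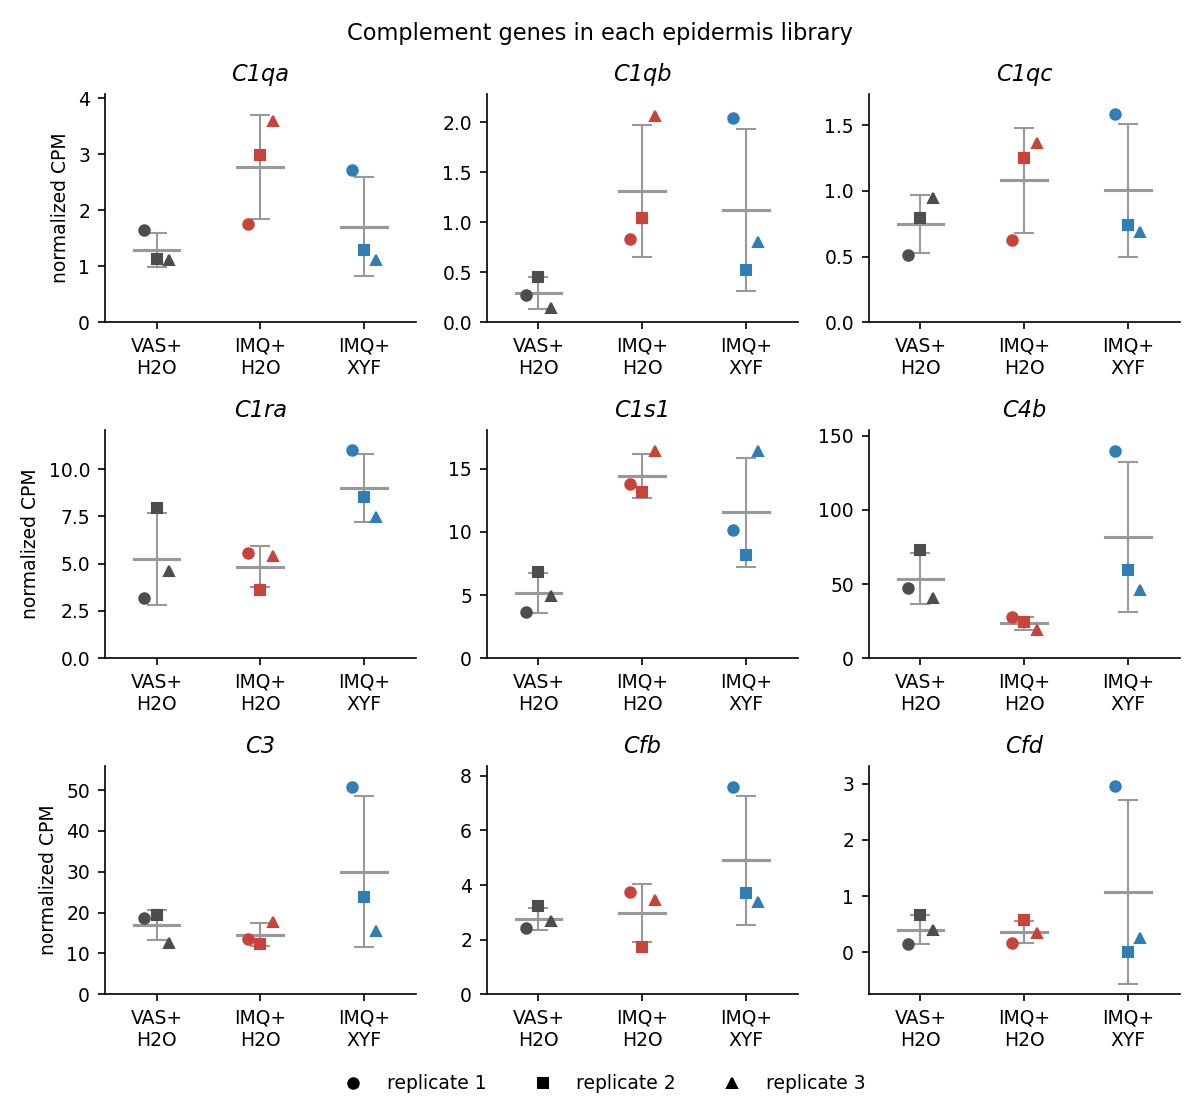
Normalized CPM of each complement gene (linear vertical axes that differ between panels), with 1 point per library, horizontal bars at the mean and error bars of 1 SD (n = 3 per group). C1s1 and C1qb are higher in both imiquimod groups, C4b is lowest in IMQ + H2O, and IMQ + XYF replicate 1 is the highest point for 6 genes.

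Sequence before the start site is shown for C1s1 and C1qb, the members called higher in the model group, and for C3, where the pathways meet, so that their upstream regions can be compared. Each is the 250 bases upstream of the RefSeq start (GRCm38.p6, minus strand, read 5′ to 3′ toward the gene), from chr6:124542360-124542609, chr4:136886201-136886450 and chr17:57228137-57228386. C1s1 has a second RefSeq start, whose window of 250 bases, not shown, holds an ETS core 46 bases before the start and no C/EBP-type match. Capitals mark matches to the letters searched on both strands.
C1s1: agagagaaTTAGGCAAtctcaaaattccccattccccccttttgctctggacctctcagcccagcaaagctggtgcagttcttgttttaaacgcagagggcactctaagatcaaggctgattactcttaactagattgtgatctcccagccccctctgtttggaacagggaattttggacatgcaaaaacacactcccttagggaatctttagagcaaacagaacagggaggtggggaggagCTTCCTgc
C1qb: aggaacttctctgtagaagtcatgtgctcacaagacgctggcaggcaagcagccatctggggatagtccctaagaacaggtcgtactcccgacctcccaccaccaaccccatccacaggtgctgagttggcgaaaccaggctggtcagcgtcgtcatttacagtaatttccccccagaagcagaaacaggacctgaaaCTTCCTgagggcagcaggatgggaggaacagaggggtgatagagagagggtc
C3: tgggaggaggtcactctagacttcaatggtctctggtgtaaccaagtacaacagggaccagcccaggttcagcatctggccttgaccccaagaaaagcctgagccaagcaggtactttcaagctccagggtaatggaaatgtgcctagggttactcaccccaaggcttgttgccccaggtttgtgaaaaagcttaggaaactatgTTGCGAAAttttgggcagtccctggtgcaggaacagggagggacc
The C1s1 window shown holds a C/EBP-type match (TTGCNNAA) 242 bases and an ETS core (AGGAAG) 8 bases before the start. C1qb holds an ETS core 52 bases before the start, and C3 a C/EBP-type match 45 bases before it. Among 32851 RefSeq promoters, 9.56% hold the C/EBP-type letters and 29.5% the ETS core in the same window. Matches to TTCNNNGAA (the STAT-type GAS motif), the core of the interferon-stimulated response element, a kappaB-type motif and TATAAA, in 7.02%, 2.98%, 4.65% and 12.4% of promoters, do not occur in these 3 windows. A match is a description of the letters and not a binding site. Of the 9 members, 6 matched an entry of the RefSeq promoter table (C3, Cfd, C1qb, C1qc, C1ra and C1s1).

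The wider pathway was described with 48 other complement genes, of which 10 had no count in any library, among them Mbl1 and Mbl2, the mannose-binding lectins, and C6 and C8a of the membrane attack complex. In IMQ + H2O against VAS + H2O, 21 were tested and edgeR called 2, both lower (9.52% of the 21, against 4.04% of all genes called lower and 7.68% called in either direction), while DESeq2 also called Itgam higher. Colec12, a scavenger receptor of the collectin family, measured 8.04, 29.3 and 5.22 CPM in VAS + H2O, 3.08, 2.08 and 1.81 CPM in IMQ + H2O, and 15.0, 8.57 and 4.10 CPM in IMQ + XYF. IMQ + H2O lay below both other groups in all libraries, as it did for C4b. Its highest value was in VAS + H2O replicate 2, the library richest in fibroblast markers, and within IMQ + XYF its order was that of the fibroblast sum. Within VAS + H2O the orders differed, since replicate 1 was above replicate 3 for Colec12 but below it for the sum (103 and 137 CPM). They also differed within IMQ + H2O, where the sum was 60.3, 58.7 and 60.8 CPM. Colec12 fell by 2.64 on the log2 scale (SE 0.67, adjusted p = 0.0352, edgeR), and by 1.53 without VAS + H2O replicate 2 (SE 0.31, adjusted p = 0.0448, edgeR). The call was lost without VAS + H2O replicate 1 or any IMQ + H2O library. The part of dermal tissue in the Colec12 values was not tested. Susd4, a membrane inhibitor of complement, fell by 1.22 (SE 0.34, adjusted p = 0.0425, edgeR), a call lost without any library but VAS + H2O replicate 3. Of the membrane regulators, 5 of 5 tested had a negative sign, where 52.4% of all genes did, and Cd55, the decay-accelerating factor, was at -0.94 ± 0.27 (adjusted p = 0.0482, edgeR), short of the fold threshold. All 4 receptors tested had a positive sign, where 47.6% of all genes did, and edgeR called none. Itgam, a chain of complement receptor 3, was at 2.44 ± 0.82 (adjusted p = 0.0755, edgeR, and 0.0397, DESeq2, which called it), with 19.3 CPM in IMQ + H2O replicate 3 against 1.83 and 6.19 CPM. Without that library its log2 difference was 1.26 ± 0.60 (adjusted p = 0.218, edgeR). Itgam was next highest in IMQ + XYF replicate 1, at 17.0 CPM, and these are the libraries in which the neutrophil and monocyte sum without Cxcr2 was also highest, at 69.9 and 40.4 CPM. The part of these cells in the Itgam values was not tested, and 68.7% of its exon bases overlap the gene Gm49368. The median log2 fold change of the 21 genes was -0.53, against -0.03 for all genes.

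Between IMQ + XYF and IMQ + H2O, 22 of these genes were tested and edgeR called 0, with 2 at an unadjusted p below 0.05, Colec12 and Clu. Colec12 differed by 2.01 ± 0.48 on the log2 scale (adjusted p = 0.479, edgeR, and 0.00092, DESeq2, which called it), and by 1.45 ± 0.39 without IMQ + XYF replicate 1 (adjusted p = 0.982, edgeR). Clu, the chaperone clusterin that restrains the membrane attack complex, differed by 0.57 ± 0.15 (adjusted p = 0.566, edgeR). The median of the 22 genes was 0.07. Between IMQ + XYF and VAS + H2O, 23 were tested and edgeR called 1 (4.35%, against 7.64% of all genes), C3ar1, the receptor of the C3a fragment. DESeq2 also called C9, a component of the membrane attack complex, lower (log2 -2.53 ± 0.89, adjusted p = 0.0178, DESeq2, and 0.0533, edgeR). C3ar1 had 0 counts in all 3 VAS + H2O libraries, 0, 4 and 37 counts in IMQ + H2O, and 32, 20 and 13 counts in IMQ + XYF. Set against a floor of 3 counts per VAS + H2O library, its level was at least 6.19-fold higher in IMQ + XYF. C3ar1 passed the low-count filter in that comparison through IMQ + XYF alone, which favoured its call. The median of the 23 genes was 0.01.

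**Figure D5:**
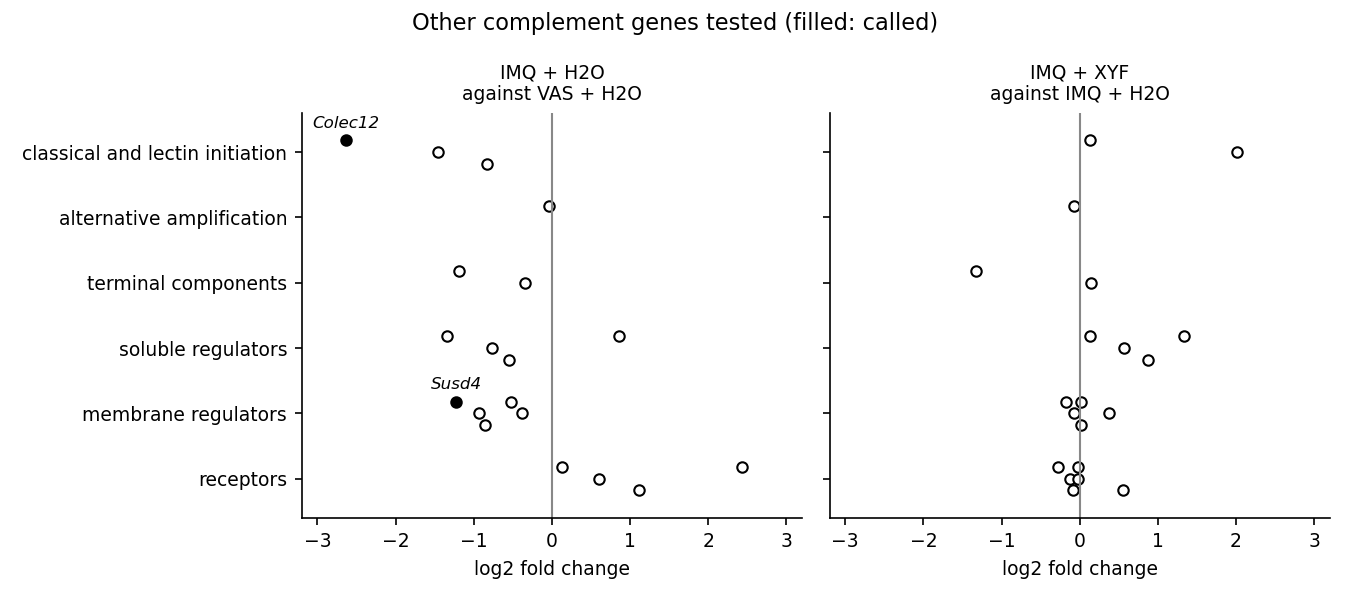
Log2 fold changes (horizontal axis) of the other complement genes tested, grouped by role, for IMQ + H2O against VAS + H2O (left) and IMQ + XYF against IMQ + H2O (right), without the 3 close copies. Filled points were called and are named. Colec12 and Susd4 are filled on the left and no gene is filled on the right.

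Patterns over the 9 libraries were compared as Pearson's r of log2 CPM with 13103 or 13104 genes whose mean log2 CPM was at least 1. The libraries share depth and tissue makeup, so r is a description. The genes most like C3 were Slc39a9 (r = 0.890), Btbd6 (0.889) and Afmid (0.880). Of the members, Cfb ranked 8th at 0.834 and C4b 15th at 0.80 by likeness to C3, and C1s1 had r = -0.06 with it. Those most like C1qa were Appbp2 (0.926), Was (0.917) and Crb3 (0.910), with C1qb 79th at 0.769 and C1qc 264th at 0.691. Rtkn (0.973), Dhx33 (0.966) and Ap1m1 (0.964) were most like C1s1, and C1qb was the nearest member at 0.798 but ranked only 1705th. For Cfd they were Rmdn1 (0.831), Cox16 (0.828) and Pias4 (0.817), with C1qc 46th at 0.674.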

How the data were processed

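Epidermal sheets from mouse ears (3 groups of 3 libraries) were sequenced by the authors, who aligned the reads with STAR (2.5, per the submitters' processing notes) to GRCm38 with Ensembl 90 annotation. They deposited raw counts per gene for all libraries. The counting tool and its strand setting are not given in the sources used here. From these counts, each pair of groups was compared with edgeR 4.0.16 (quasi-likelihood test, TMM factors, filterByExpr, Benjamini-Hochberg adjustment over all genes tested), without covariates. Genes were called when the adjusted p was no higher than 0.05 and the difference was 2-fold or more. CPM used TMM factors over 18492 genes. DESeq2 1.42.0, other filters, copies summed and each library left out were alternatives. Depth was 30298275 to 64771160 counts per library, and floors (3 counts) cover counting error only. In a simulation of IMQ + H2O against VAS + H2O, edgeR recovered 97% of 200 genes changed 4-fold among 18009. The simulated spread was the same for every gene and no library stood apart, so this share need not hold for the real libraries. Libraries of a group differed beyond sampling noise. Exons were taken from GENCODE M21. Named genes were the members, their copies and overlapping genes, pathway genes both called and not called, and markers of other cell types. The 3 genes most like C3, Cfd, C1qa and C1s1 were named as well. The members and lists were chosen with earlier results of these data known. 1 macrophage marker is not reported here.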

Additional observations from a re-analysis of the deposited data

How the results depend on the processing

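Of 391 fold changes of members refitted under alternatives, 344 kept direction and side of the threshold, 15 lost the call, 9 gained it and 23 changed sign, and the cause was not tested. With libraries left out in turn, members called ranged from 1 to 4 (genes 711 to 1314) for IMQ + H2O against VAS + H2O, 0 to 0 (genes 0 to 5) for IMQ + XYF against IMQ + H2O, and 0 to 2 (genes 996 to 1350) for IMQ + XYF against VAS + H2O. Adjusted p alone called 3986 genes for IMQ + H2O and 5152 for IMQ + XYF against VAS + H2O. For IMQ + XYF against IMQ + H2O, DESeq2 called 1 member and 129 genes, all 9 libraries in 1 fit called 1 gene, and DESeq2 with the first IMQ + XYF library left out, added after seeing the data, called 1 member and 75 genes. For IMQ + XYF against VAS + H2O, DESeq2 and the fit of all 9 libraries each called 2 members, among 1493 and 1349 genes called.

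Correlations of same-numbered deviations ran from -0.14 to 0.24, and those of differently numbered ones from -0.29 to 0.20. With 3 libraries per group, these values cannot settle whether replicate numbers pair the libraries. A replicate block called 2 members (1100 genes) for IMQ + H2O against VAS + H2O, 0 members and 0 genes for IMQ + XYF against IMQ + H2O, and 0 members (1113 genes) for IMQ + XYF against VAS + H2O.

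Sign changes of members came with a library left out and had main values near 0 or rested on a single library. Log2 fold changes of IMQ + H2O against VAS + H2O ranged from -0.062 to 0.40 for Cfb, -0.56 to 0.45 for Cfd and -0.39 to 0.31 for C1ra. Those of IMQ + XYF against IMQ + H2O ranged from -1.47 to 2.15 for Cfd, -0.99 to 0.29 for C1qb and -0.61 to 0.12 for C1qc. Those of IMQ + XYF against VAS + H2O ranged from -0.0055 to 0.90 for C4b, -1.57 to 2.06 for Cfd, -0.093 to 0.64 for C1qa and -0.044 to 0.68 for C1qc. Among values added after seeing the data, with libraries left out, the members' median ranged from -0.033 to 0.45 for IMQ + H2O against VAS + H2O, -0.24 to 0.94 for IMQ + XYF against IMQ + H2O and 0.24 to 1.001 for IMQ + XYF against VAS + H2O. Itgam ranged from -1.78 to 0.90 for IMQ + XYF against IMQ + H2O and Colec12 from -1.14 to 0.48 for IMQ + XYF against VAS + H2O. DESeq2 without the first IMQ + XYF library gave -1.51 for Cfd against IMQ + H2O, and -0.024 for C4b, -1.64 for Cfd, -0.11 for C1qa and -0.059 for C1qc against VAS + H2O.

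C1qb, C1qc and Cfd had under 25 counts in some libraries, which limits the precision of their values.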
